A study of Mus musculus with 12 samples.

Results

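Developmental transcription factors build the body plan and the cell types of the embryo, and many are then kept silent for life. Homeobox factors such as the Hox, Pax, Nkx and POU proteins specify position and organ, Sox and Fox factors hold stem cell and lineage states, T-box factors pattern heart, limb and mesoderm, and proneural bHLH factors turn progenitors into neurons. In the adult hippocampus a small number of them stay active in pyramidal neurons, interneurons and glia. Their transcripts were followed here after loss of Tip60 (gene symbol Kat5), a lysine acetyltransferase that modifies histones.

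The members were taken by gene symbol, as all genes of the homeobox (Hox, Dlx, Lhx, Lmx, Pax, Nkx, POU, Irx, Otx, Barhl, Barx, Msx, Emx, En and the family of Six3), Sox, Fox, T-box, Gata and bHLH (Neurog, Neurod, Olig, Atoh, Ascl, Bhlh) families in the table. This gave 173 of 10244 gene symbols. Of these, 168 encode transcription factors. The remaining 5 carry a matching symbol but are no such factors, namely the non-coding RNA genes Dlx1as, Dlx6as2, Otx2os1 and Hoxa11as and the coactivator gene Pou2af1.

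Dorsal CA1, the band of excitatory pyramidal neurons of the hippocampus, came from 6 Tip60 cKO and 6 Control mice, all male per the sample labels, of the C57BL/6N strain and carrying a floxed Tip60 gene. The Tip60 cKO mice also carried CaMKCreERT2, a tamoxifen-inducible Cre active in excitatory forebrain neurons, and Control mice had no Cre. Tamoxifen was given to both genotypes at 2 months of age, and tissue was taken 10 days past the final dose. Cre was present only in Tip60 cKO mice, so effects of Cre and of Tip60 loss cannot be told apart, and in bulk tissue more RNA per cell cannot be told apart from more cells of a type. Kat5 was not analysed here, so the genotypes were not checked against the deleted gene. No source used here says whether libraries kept strand information. Reads of a gene and of an overlapping partner on the other strand therefore cannot be told apart.

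Values are in FPKM. Depth was estimated at 31.0 to 35.2 M reads in Tip60 cKO libraries and 30.6 to 37.2 M reads in Control libraries (exact two-sided permutation p = 0.182). Of 15 markers of CA1 pyramidal neurons only Pou3f1 and Dcn were in the table, and both were above 0 in all 12 libraries. Both were also called higher in Tip60 cKO CA1, with a summed level of 53.5 to 69.5 FPKM in Tip60 cKO and 29.6 to 36.0 FPKM in Control libraries. Their log2 changes were 0.92 for Pou3f1, itself a member, and 0.71 for Dcn, a gene that meningeal fibroblasts also express. The library Tip60 cKO 1 stood apart from the rest in Ttr, the choroid plexus transthyretin gene, at 201 FPKM against at most 0.911 FPKM elsewhere.

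Of the 173 members, 33 were at 0 in all 12 libraries and 140 were above 0 in at least 1 library. Of the 140, 91 had a mean under 0.1 FPKM and were not tested, and 49 were tested. Grouped by the Control mean, 94 of the 140 were silent (under 0.1 FPKM), 22 were low (0.1 to under 0.5 FPKM) and 24 were expressed (0.5 FPKM or more). The most abundant were Olig1, Bhlhe40 and Pou3f1. In total, 95 to 108 members were above 0 in a Tip60 cKO library and 89 to 96 in a Control library, beside 5648 to 5850 of all genes in Tip60 cKO and 5255 to 5478 in Control libraries.

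Single members differed widely between genotypes, up to a ratio of means of 16.7 in Pax1 among tested members, while the median change of the set was close to that of all genes. With limma, 14 of the 49 tested members were higher in Tip60 cKO CA1 and 3 were lower at an adjusted p below 0.05 and a fold above 1.2. These are 28.6% and 6.12% of the tested members, close to the 26.7% and 5.95% of all 3646 tested genes, so the counts are not a result about the members. The median log2 change of FPKM + 0.1 was 0.14 over the members and 0.15 over all tested genes. All 6 Tip60 cKO libraries lay above all 6 Control libraries in 10 tested members and below them in 3, against 21.2% and 5.81% of all tested genes.

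**Figure D1:**
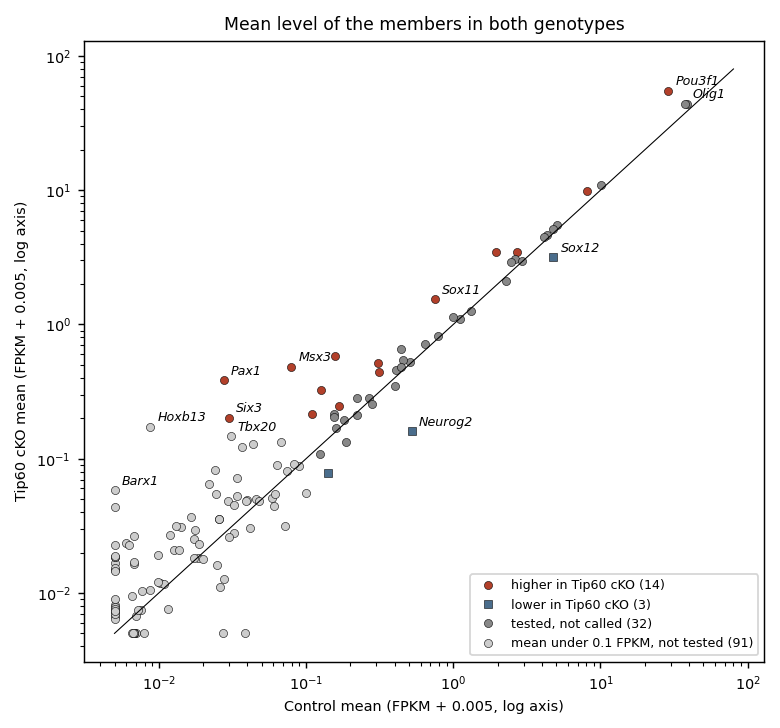
Mean FPKM of the 140 members above 0, with Tip60 cKO on the vertical and Control on the horizontal axis, both logarithmic after adding 0.005 FPKM; the line marks equal means. The 14 members called higher include Pax1, Six3 and Msx3 far above the line, and Neurog2 and Sox12 are among the 3 called lower.

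The largest log2 changes of tested members, those of Pax1 and Msx3, were in genes with almost no transcript in Control CA1. Six3, also near silent there, changed less in size (1.26) than Neurog2 (-1.28), a member expressed in Control. Pax1, Msx3 and Six3 had Control means under 0.1 FPKM, passed the filter only through their Tip60 cKO libraries, and were the 3 silent members tested. Their rises are therefore a description of how far each moved, and the adjusted p-values given for them below are no separate support for a rise. Of all 221 tested genes silent in Control 62.4% were called higher and 0 lower. The filter passes genes of this class only through their Tip60 cKO libraries, so the direction was set by the selection.

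Pax1 encodes a paired-box factor of the embryonic sclerotome and the thymus. It had a lowest, median and highest value of 0.298, 0.375 and 0.485 FPKM in Tip60 cKO libraries, against 0.000167, 0.0256 and 0.0336 FPKM in Control libraries. The groups did not overlap, and Pax1 showed the largest log2 change of all tested members (1.95 ± 0.14 SE, limma adjusted p = 4.42e-08). The RefSeq gene AI646519, which overlaps Pax1, stayed at 0 in all Tip60 cKO libraries and reached at most 0.0469 FPKM in Control libraries.

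Msx3 encodes a homeobox protein of the dorsal neural tube. It had 0.390, 0.479 and 0.559 FPKM at the lowest, median and highest in Tip60 cKO libraries, against 0.0114, 0.0683 and 0.163 FPKM in Control libraries. Again no Control library reached the lowest Tip60 cKO library, and the log2 difference was 1.77 ± 0.18 (SE, limma adjusted p = 1.8e-06).

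Six3 encodes a homeobox protein of the eye, the anterior forebrain and the developing striatum. It had 0.153, 0.208 and 0.223 FPKM in Tip60 cKO libraries at the lowest, median and highest, against 0.00277, 0.0218 and 0.0488 FPKM in Control libraries. All Tip60 cKO libraries lay above all Control libraries (log2 change 1.26 ± 0.14, SE, limma adjusted p = 3.07e-06). Six3os1, a non-coding RNA gene that overlaps Six3, was not analysed here.

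The sequence around the start sites of these genes is given because the 3 risers from near silence can be set beside Neurog2, the member with the largest fall. RefSeq promoters (build GRCm38.p6, windows of 300 bases around the annotated start, printed 5′ to 3′ on the strand of the gene) matched 112 of the 173 members. Capitals mark CG dinucleotides, the sites of cytosine methylation in mammals.
Pax1 (chr2:147364744-147365043, + strand): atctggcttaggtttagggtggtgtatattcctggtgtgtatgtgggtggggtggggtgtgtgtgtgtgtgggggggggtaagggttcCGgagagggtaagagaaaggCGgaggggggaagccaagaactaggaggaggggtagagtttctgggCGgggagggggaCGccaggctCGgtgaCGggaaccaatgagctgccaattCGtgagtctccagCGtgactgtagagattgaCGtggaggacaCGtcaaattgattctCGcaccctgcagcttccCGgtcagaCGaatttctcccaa
Msx3 (chr7:140049039-140049338, - strand): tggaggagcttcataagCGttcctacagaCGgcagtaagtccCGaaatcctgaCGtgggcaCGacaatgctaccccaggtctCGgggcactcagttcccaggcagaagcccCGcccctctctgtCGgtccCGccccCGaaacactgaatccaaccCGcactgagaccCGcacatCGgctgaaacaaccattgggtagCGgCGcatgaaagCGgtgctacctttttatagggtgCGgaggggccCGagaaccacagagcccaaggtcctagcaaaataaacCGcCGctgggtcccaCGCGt
Six3 (chr17:85620584-85620883, + strand): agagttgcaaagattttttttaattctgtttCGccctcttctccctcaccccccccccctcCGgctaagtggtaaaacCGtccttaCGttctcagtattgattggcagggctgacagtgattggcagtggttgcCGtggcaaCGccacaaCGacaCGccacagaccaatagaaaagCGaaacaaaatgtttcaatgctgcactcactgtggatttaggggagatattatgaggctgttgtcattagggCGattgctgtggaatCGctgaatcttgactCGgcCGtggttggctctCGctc
Neurog2 (chr3:127632886-127633185, + strand): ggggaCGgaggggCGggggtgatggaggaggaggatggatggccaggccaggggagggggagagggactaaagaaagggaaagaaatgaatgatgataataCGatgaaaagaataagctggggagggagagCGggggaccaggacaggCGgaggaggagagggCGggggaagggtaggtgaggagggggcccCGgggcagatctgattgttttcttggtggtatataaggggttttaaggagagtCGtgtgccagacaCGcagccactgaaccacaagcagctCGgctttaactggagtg

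The windows hold 13 CG dinucleotides at Pax1, 22 at Msx3, 14 at Six3 and 10 at Neurog2. Over the 112 matched members the median was 18.5, against 7 over the 27025 promoters compared, 1 per gene. It was 22 over 7 matched transcription factor members called higher, 16 over 3 called lower, 24 over 19 tested but not called and 12 over 23 at 0 in every library. The matched members thus had a higher median than promoters at large, and the median of those called higher was close to that of tested members not called. Both strands were searched for TGACGTCA (cAMP response element), found in 1.88% of all promoters, and for the TATA box TATAAA, found in 14.2%. Of the 4 printed windows, that of Msx3 held TATAAA, only on the strand opposite the gene (printed as tttata). The others held neither exact string. Variants of the TATA box, such as the tatataag in the Neurog2 window, were not searched for.

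Below the filter, 7 of the 91 untested members had all 6 Tip60 cKO libraries above all 6 Control libraries and 0 had the reverse, against 3.4% and 0.138% of the 3620 genes with a mean under 0.1 FPKM. The 7 were Hoxb13, Tbx20, Hoxa7, Barx1, Foxd3, Sox30 and Foxn1, factors of different organs. They were picked by this separation, so adjusted p-values given for them below are no separate support for a rise. In read equivalents Foxn1 and Sox30 overlapped between the genotypes, so their separation in FPKM rests on the scaling to depth. Summed over the 91 members, the level was 1.94 to 3.17 FPKM in Tip60 cKO libraries and 1.37 to 1.71 FPKM in Control libraries. The highest sum was in Tip60 cKO 1, the library high in Ttr, where Otx2 alone had 0.582 FPKM. The same sum was not taken over all genes under 0.1 FPKM, so the difference is not read as particular to the members.

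Hoxb13, a posterior Hox gene active in the prostate and tail bud, had 0.101, 0.171 and 0.215 FPKM at the lowest, median and highest in Tip60 cKO libraries. It was at 0 in 5 Control libraries and at 0.0224 FPKM in Control 6. In read equivalents, the number of reads that an FPKM value stands for at the estimated depth, this was 7.03 to 15.8 reads in Tip60 cKO libraries and 1.77 reads in Control 6. In a fit of all 7266 genes without the filter, the log2 change of FPKM + 0.1 was 1.36 ± 0.12 (SE, limma adjusted p = 1.5e-06).

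Tbx20, a T-box gene of the heart, and Hoxa7, a Hox gene of the trunk, were present at trace level in every library. Tbx20 had 0.0677, 0.143 and 0.216 FPKM at the lowest, median and highest in Tip60 cKO libraries, against 0.0123, 0.0244 and 0.0459 FPKM in Control libraries (log2 change 0.93 ± 0.14, SE, limma without filter adjusted p = 0.000218). Hoxa7 had 0.0590, 0.118 and 0.197 FPKM in Tip60 cKO libraries, against 0.0142, 0.0345 and 0.0463 FPKM in Control libraries (log2 change 0.69 ± 0.16, SE, limma without filter adjusted p = 0.0041).

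Barx1 (a homeobox gene of stomach and jaw) and Foxd3 (a forkhead gene of the neural crest) were the 2 members above 0 in every Tip60 cKO and no Control library. Barx1 ranged over 1.06 to 3.23 read equivalents and Foxd3 over 0.943 to 4.77 in Tip60 cKO libraries, so each value rests on a handful of reads, and the depth cannot show absence in Control CA1. In both, the values lay close to whole multiples of the lowest. Sox30, a gene of the male germ line, had 2.83 to 7.65 read equivalents in Tip60 cKO and 0.943 to 2.87 in Control libraries. Foxn1, the thymic epithelium forkhead gene, had 1.23 to 6.15 read equivalents in Tip60 cKO libraries and 1.25 in a single Control library, and was not called in the fit without filter (limma adjusted p = 0.0508).

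**Figure D2:**
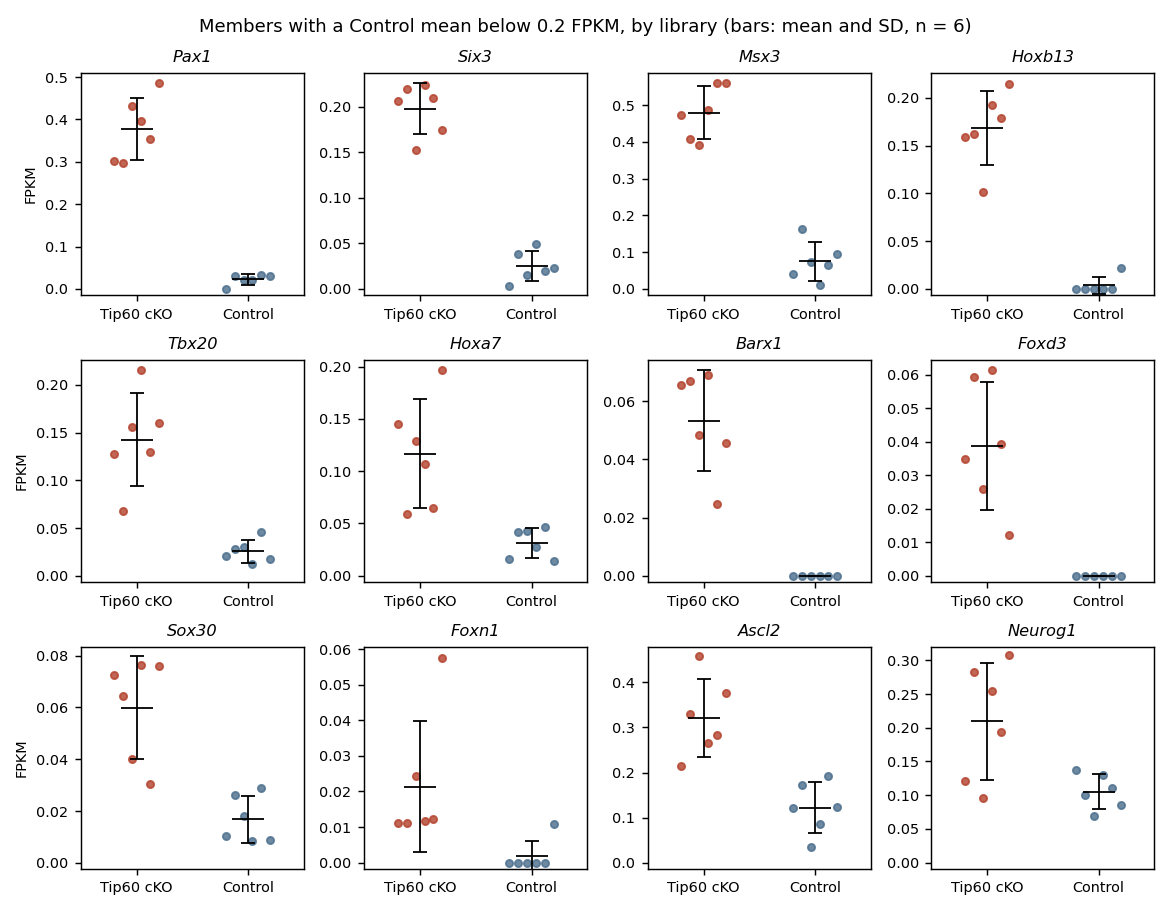
FPKM of 12 members with a Control mean below 0.2 FPKM in each Tip60 cKO (red, left) and Control (blue, right) library, with bars for the mean and SD (n = 6 each). Each panel has its own scale. The panels were chosen with the values known: Pax1, Six3, Msx3, the 7 untested members with non-overlapping groups, Ascl2 and Neurog1. The groups are apart in all panels but Neurog1, which follows from that choice. Of the 94 members silent in Control, 10.6% had all Tip60 cKO libraries above (all genes 5.59%) and 0 had them below. Six4, called lower, is not drawn.

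Without the filter, limma called 21 of the 140 members higher and 4 lower, against 16% and 3.1% of all 7266 genes. Beyond those named, this fit called Dlx4 and Pax5 higher, with overlapping groups, and Nkx6-3, a gene of the stomach, lower. Nkx6-3 was at 0 in all 6 Tip60 cKO libraries and had up to 2.94 read equivalents in a Control library.

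Onset from 0 went in both directions. Of the members at 0 in all 6 Control libraries, 20 were above 0 in at least 1 Tip60 cKO library, and 10 showed the reverse. Over all 7266 genes the numbers were 708 and 283.

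The Hox clusters, which set position along the trunk, stayed almost silent. Of 40 Hox members, 22 were at 0 in all 12 libraries and 0 passed the filter, so none entered the test at this filter. Apart from Hoxb13 and Hoxa7, no Hox gene had a mean above 0.1 FPKM in either genotype, and Hoxc8 averaged 0.0437 FPKM in Tip60 cKO libraries. Hoxd1, a typical trace gene, had 1.98 to 3.95 read equivalents in Tip60 cKO and 0 to 5.96 in Control libraries, with full overlap. Irx, Gata and Lhx/Lmx members likewise had 0 tested genes of 6, 5 and 7.

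Among members that were low in Control, 6 of 22 were called higher and 1 lower, beside 24.5% and 1.99% of all tested genes in that class. Ascl2, a bHLH factor of trophoblast and intestinal stem cells, had 0.215, 0.306 and 0.458 FPKM in Tip60 cKO libraries, against 0.0355, 0.123 and 0.191 FPKM in Control libraries. The groups did not overlap (log2 change 0.94 ± 0.19, SE, limma adjusted p = 0.0010). Barx2, a homeobox gene of muscle and epithelium, averaged 0.512 ± 0.163 FPKM in Tip60 cKO and 0.303 ± 0.0421 FPKM in Control libraries (SD, n = 6 each) and was called higher with overlapping groups (limma adjusted p = 0.0078).

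Neurog1, Sox3 and Foxp2 were called higher with overlapping groups, and their calls depended on single libraries. Neurog1, a proneural bHLH factor, changed by 0.55 ± 0.19 on the log2 scale (SE, limma adjusted p = 0.028), and its call was lost without Tip60 cKO 2, 4 or 6 or Control 3 or 6 (adjusted p 0.0536 to 0.067). Sox3, a SoxB1 factor of neural progenitors, changed by 0.42 ± 0.15 (SE, limma adjusted p = 0.033) and lost its call without Tip60 cKO 2, 4, 5 or 6 or Control 2, 3 or 4 (adjusted p 0.056 to 0.0752). Foxp2, a forkhead factor of deep cortical layers and striatum, changed by 0.38 ± 0.12 (SE, limma adjusted p = 0.023) and lost its call without Tip60 cKO 2 (adjusted p = 0.0565) or Control 6 (adjusted p = 0.0535).

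Six4, a homeobox gene of muscle and sensory organs, was the low member called lower. It had 0.0567, 0.0729 and 0.0937 FPKM at the lowest, median and highest in Tip60 cKO libraries, against 0.107, 0.133 and 0.169 FPKM in Control libraries. The groups did not overlap and the log2 change was -0.44 ± 0.12 (SE, limma adjusted p = 0.0089). Its Tip60 cKO mean was 0.0739 FPKM, so Six4 passed the filter only through its Control libraries. The adjusted p-value is therefore no separate support for a fall. Without Control 4, Six4 fell below the filter and was not tested. Mnat1, which overlaps Six4, was not analysed here.

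The 24 members expressed in Control CA1 included 5 called higher and 2 called lower, or 20.8% and 8.33%, beside 24.3% and 8.42% of all tested genes in that class. In the excitatory neuron list, 9 of 26 genes were in the table and 7 were tested, of which 4 rose (Pou3f1, Sox11, Neurog1, Foxp2), 2 fell (Neurog2, Sox12, the second also in the list of factors of many cell types) and Emx2 was not called. The shares over all tested genes were 26.7% higher and 5.95% lower. The 4 higher calls became 2 with a pseudocount of 0.5 or 1 FPKM, with a mean of at least 0.5 FPKM, or without Tip60 cKO 2 or Control 6.

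Pou3f1 encodes a POU factor made in CA1 pyramidal neurons and is a marker of them. It had 48.1, 54.0 and 62.5 FPKM at the lowest, median and highest in Tip60 cKO libraries, against 25.8, 29.0 and 31.7 FPKM in Control libraries. Among members called higher it had by far the highest level, no libraries overlapped, and the log2 change was 0.92 ± 0.07 (SE, limma adjusted p = 1.1e-07).

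Sox11 and Sox12 belong to the SoxC group, whose members act in newborn neurons, and moved in opposite directions. Sox11 had 1.48, 1.53 and 1.60 FPKM at the lowest, median and highest in Tip60 cKO libraries, against 0.619, 0.722 and 0.889 FPKM in Control libraries (log2 change 0.97 ± 0.09, SE, limma adjusted p = 5.8e-07). Sox12 had 2.75, 3.24 and 3.33 FPKM in Tip60 cKO libraries, against 4.35, 4.81 and 5.15 FPKM in Control libraries (log2 change -0.58 ± 0.06, SE, limma adjusted p = 1.6e-06). Neither gene showed overlap between the genotypes.

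Neurog2, the proneural bHLH factor that starts excitatory neuron fate in the embryonic cortex, showed the largest fall of all tested members. It had 0.115, 0.140 and 0.198 FPKM in Tip60 cKO libraries, against 0.422, 0.498 and 0.656 FPKM in Control libraries. In read equivalents this was 8.87 to 14.7 in Tip60 cKO and 34.0 to 48.3 in Control libraries. The groups did not overlap and the log2 change was -1.28 ± 0.12 (SE, limma adjusted p = 1.0e-06). Its relative Neurog1 was called higher, as given above. Emx2, a homeobox gene of the hippocampal primordium, averaged 4.65 ± 0.301 FPKM in Tip60 cKO and 4.34 ± 0.835 FPKM in Control libraries (SD, n = 6 each), with a 95% interval of the log2 change of -0.09 to 0.32.

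**Figure D3:**
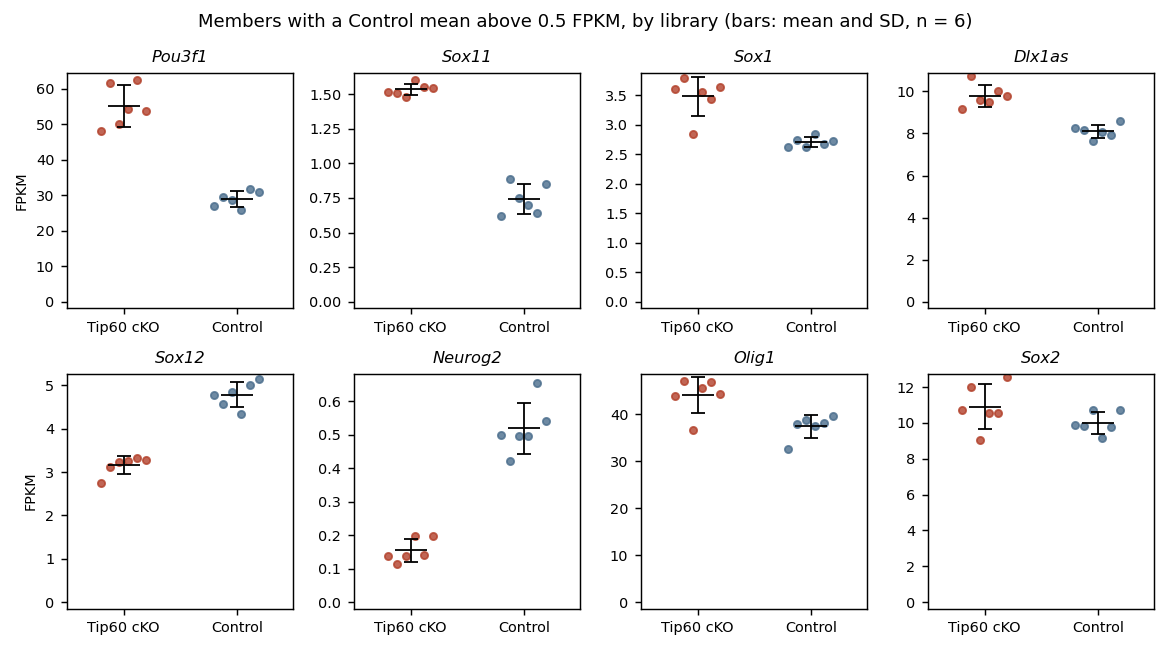
FPKM of 8 members with a Control mean above 0.5 FPKM in each Tip60 cKO (red, left) and Control (blue, right) library, with bars for the mean and SD (n = 6 each). Pou3f1, Sox11, Sox1 and Dlx1as are higher and Sox12 and Neurog2 lower without overlap, whereas Olig1 and Sox2 overlap.

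The list of inhibitory neuron and ventral forebrain factors had 8 of 15 genes in the table and 3 tested. Six3, called higher, passed the filter only through its Tip60 cKO libraries, so the number of calls in so short a list is not read. Nkx2-1, a factor of the ventral forebrain, averaged 0.536 ± 0.105 FPKM in Tip60 cKO and 0.454 ± 0.0707 FPKM in Control libraries (SD, n = 6 each) without a call (limma adjusted p = 0.22).

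The non-coding RNA gene Dlx1as, which overlaps the interneuron gene Dlx1 (not analysed here), had 9.18, 9.68 and 10.7 FPKM in Tip60 cKO libraries, against 7.62, 8.11 and 8.58 FPKM in Control libraries. The groups did not overlap, and the log2 change of 0.27 ± 0.04 (SE, limma adjusted p = 0.000162) lay just above the fold limit, below which it came without Tip60 cKO 2 (0.24), Tip60 cKO 5 (0.26) or Control 3 (0.25). Of the other members that are no transcription factors, Dlx6as2, Otx2os1 and Pou2af1 had at most 0.1997 FPKM in any library, and Hoxa11as was at 0 throughout.

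Of 19 markers of interneurons listed, 6 were in the table. The summed level of the 6 interneuron markers in the table (Sst, Npy, Slc32a1, Cort, Calb2, Crh) was 765 to 834 FPKM in Tip60 cKO libraries and 383 to 445 FPKM in Control libraries (exact two-sided permutation p = 0.00216, the smallest that 6 against 6 libraries allow), and 5 of the 6 were called higher. None of them was at 0, and Sst took the largest share, with 583 to 661 FPKM in Tip60 cKO and 298 to 347 FPKM in Control libraries. Slc32a1, the vesicular GABA transporter gene of all interneurons, had 22.3 to 26.8 FPKM in Tip60 cKO and 18.5 to 20.2 FPKM in Control libraries. Of 18 activity-induced genes listed, 9 were in the table, of which 8 were called higher and 0 lower. Beside both lists, 26.7% of all tested genes were called higher and 5.95% lower. The part of either list in the changes of the members was not tested.

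Of the glial and stem cell factors, 3 of 8 tested genes were called higher (Sox1 and Sox3 among them) and 0 lower, beside 26.7% and 5.95% of all tested genes. At an unadjusted p below 0.05 limma gave 5 higher and 0 lower. The 3 higher calls became 1 under median-ratio or upper-quartile scaling and 5 without Tip60 cKO 3. Sox1, Sox2 and Sox3 form the SoxB1 group, which holds the neural progenitor state. Sox1 had 2.85, 3.59 and 3.80 FPKM at the lowest, median and highest in Tip60 cKO libraries, against 2.62, 2.70 and 2.84 FPKM in Control libraries, so that the lowest Tip60 cKO library was just above the highest Control library (log2 change 0.35 ± 0.07, SE, limma adjusted p = 0.00051). After median-ratio or upper-quartile scaling its log2 change was 0.25 or 0.24, below the fold limit. Sox2 averaged 10.9 ± 1.25 FPKM in Tip60 cKO and 10.0 ± 0.613 FPKM in Control libraries (SD, n = 6 each), with overlap and no call (limma adjusted p = 0.20). Its log2 change was 0.12, below the median of all tested genes, and 0.02 after median-ratio and 0.008 after upper-quartile scaling. Sox3 also lost its call under both scalings.

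Olig1, a bHLH factor of the oligodendrocyte lineage and one of the most abundant members, averaged 44.1 ± 3.86 FPKM in Tip60 cKO and 37.5 ± 2.47 FPKM in Control libraries (SD, n = 6 each). Its adjusted p was 0.0068 (limma), but the log2 change of 0.23 stayed under the fold limit except without Tip60 cKO 3, where it was 0.28. The summed oligodendrocyte markers overlapped, at 109 to 132 FPKM in Tip60 cKO and 85.9 to 127 FPKM in Control libraries. Sox21 differed by 0.22 on that scale (limma adjusted p = 0.054) and 0.27 without Tip60 cKO 3 (adjusted p = 0.017). Nkx6-2, another oligodendrocyte factor, and Sox9, a factor of astrocytes, changed by 0.11 and 0.10 without a call, and the sign of Sox9 turned under either scaling, to -0.002 and -0.008.

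Factors of vessels, meninges, choroid plexus and ependyma gave few calls. Of 15 tested genes 0 were called higher and only Six4 was called lower, beside 26.7% and 5.95% of all tested genes, and the median log2 change was 0.05. At an unadjusted p below 0.05 limma gave 1 higher and 1 lower, and without Control 6 it called 2 higher. Sox18, a factor of endothelial cells, averaged 2.97 ± 0.474 FPKM in Tip60 cKO and 2.93 ± 0.399 FPKM in Control libraries (SD, n = 6 each), with a 95% interval of -0.22 to 0.26 for the log2 change. Foxc1, a forkhead factor of mural and meningeal cells, had an interval of -0.17 to 0.24, and Foxq1 one of -0.23 to 0.20. Msx1, a homeobox gene of choroid plexus and meninges, reached 1.43 FPKM in Tip60 cKO 2 and 0.703 FPKM in Tip60 cKO 1, while the other 4 Tip60 cKO libraries lay between 0.368 and 0.487 FPKM and Control libraries between 0.379 and 0.545 FPKM. Otx2, a homeobox gene of the choroid plexus that was not tested, had its highest value of 0.582 FPKM in Tip60 cKO 1, the library high in Ttr, against at most 0.188 FPKM in Control libraries. The summed markers of meninges and fibroblasts were 30.4 to 39.9 FPKM in Tip60 cKO and 21.4 to 30.9 FPKM in Control libraries, those of endothelial and mural cells 57.5 to 71.6 FPKM in Tip60 cKO and 52.9 to 60.1 FPKM in Control libraries, and those of microglia 162 to 209 FPKM in Tip60 cKO and 151 to 179 FPKM in Control libraries. All 3 sums were higher in Tip60 cKO (exact two-sided permutation p = 0.00433 for meninges and fibroblasts, 0.00866 for endothelial and mural cells and 0.00649 for microglia) with overlapping libraries, and their part in the members' values was not tested. A sum gives most weight to abundant markers. By gene, log2 changes above and below 0 numbered 4 and 3 for meninges and fibroblasts, 5 and 0 for endothelial and mural cells and 4 and 4 for microglia. Calls higher and lower were 2 and 0, 1 and 0, and 3 and 1 in that order, beside 26.7% and 5.95% of all tested genes. Dcn is in both the meninges and the CA1 pyramidal list. Without Tip60 cKO 1, 14 members were again called higher and 3 lower.

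Factors of many cell types gave 0 calls higher and 1 lower (Sox12) among 5 tested, against 2 higher and 1 lower at an unadjusted p below 0.05 in limma. Bhlhe40, a clock-linked repressor, averaged 43.9 ± 3.43 FPKM in Tip60 cKO and 38.9 ± 1.79 FPKM in Control libraries (SD, n = 6 each), and Foxo1, a forkhead factor under insulin control, averaged 3.06 ± 0.156 FPKM in Tip60 cKO and 2.63 ± 0.364 FPKM in Control libraries. Both had an adjusted p below the limit (limma, 0.013 and 0.035) and changes within 1.2-fold. Foxo6, a forkhead gene of hippocampal neurons, had a 95% interval of -0.09 to 0.33 for the log2 change.

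**Figure D4:**
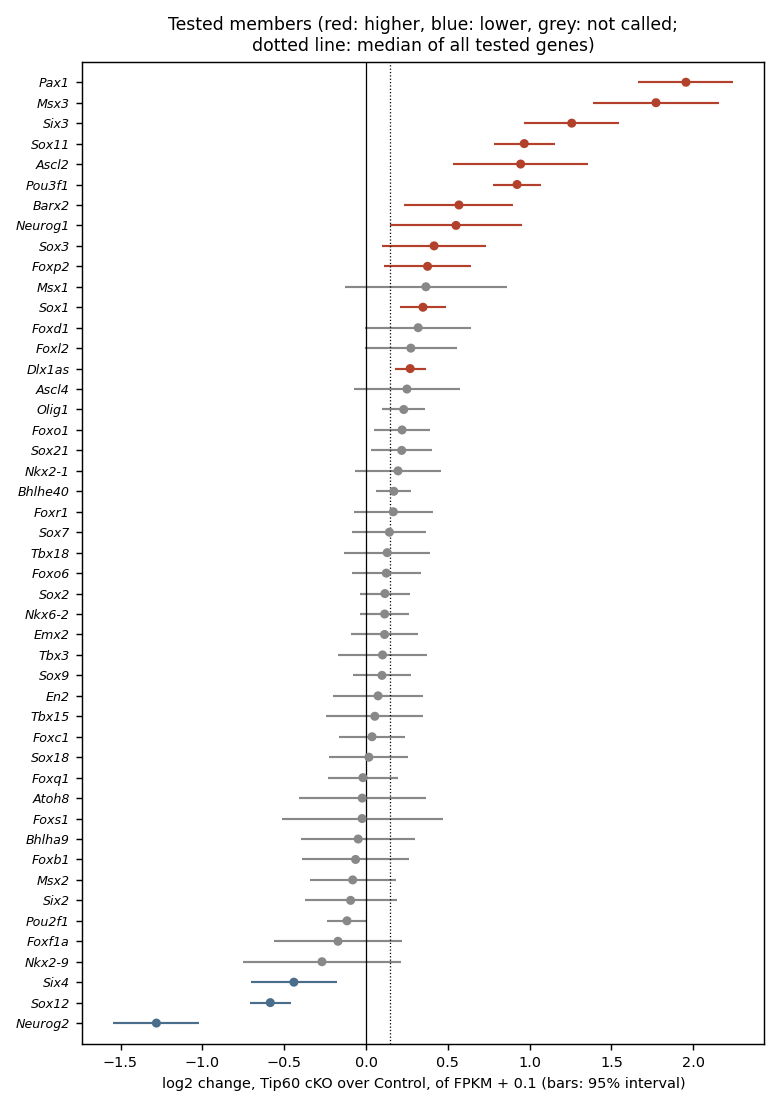
Log2 change of FPKM + 0.1, Tip60 cKO over Control, with 95% intervals for 47 of the 49 tested members, ordered by size; the dotted line is the median of all tested genes. Pax1 (1.95) stands at the top and Neurog2 (-1.28) at the bottom, and most members lie near the dotted line.

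By family, calls were 3 higher and 1 lower of 9 tested Sox genes, 3 higher and 1 lower of 9 bHLH genes, and 1 higher of 11 Fox genes, beside 26.7% higher and 5.95% lower of all tested genes. With so few genes a family, these counts single out no family. Of 3 T-box genes (Tbx3, Tbx15, Tbx18), limma called 0, also at an unadjusted p below 0.05. In the family of Six3, 3 genes were tested, of which Six3 rose, Six4 fell and Six2 had a log2 change of -0.09.

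**Figure D5:**
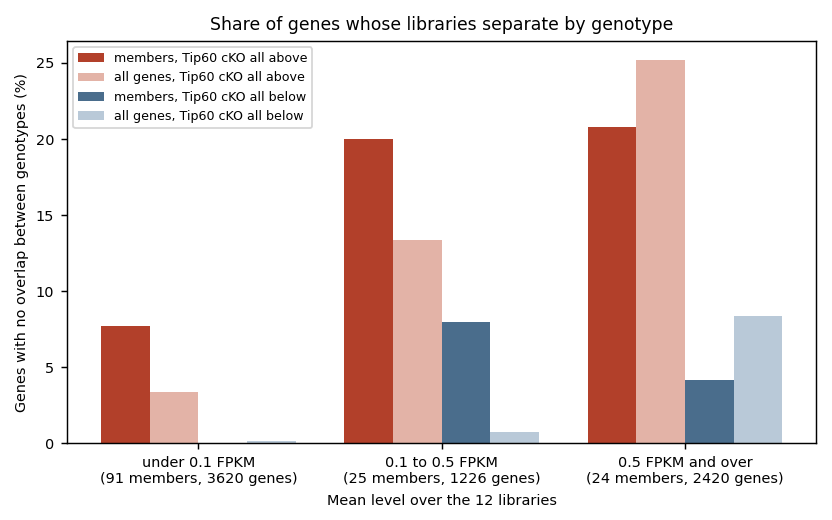
Percentage of members and of all genes whose 6 Tip60 cKO libraries all lie above (red) or all below (blue) the 6 Control libraries, in 3 classes of mean FPKM over the 12 libraries. Under 0.1 FPKM 7 of 91 members lay above and 0 below.

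When members were grouped by the mean over all 12 libraries, which does not favour either genotype, all Tip60 cKO libraries were above all Control libraries in 7.69% of members under 0.1 FPKM (all genes 3.4%), in 20% from 0.1 to under 0.5 FPKM (all genes 13.4%) and in 20.8% from 0.5 FPKM (all genes 25.2%). The reverse held for 0%, 8% and 4.17% of members (all genes 0.138%, 0.734% and 8.39%). With 91, 25 and 24 members in the classes these shares rest on 7, 5 and 5 members above and 0, 2 and 1 below.

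Developmental transcription factors outside the symbol rule gave 10 higher and 3 lower of 38 tested genes, or 26.3% and 7.89%, close to the 26.7% and 5.95% of all tested genes, so the counts are not a result about these factors. Gsx1, a ventral forebrain homeobox gene, averaged 0.387 ± 0.113 FPKM in Tip60 cKO and 0.183 ± 0.0633 FPKM in Control libraries, and Tgif1, a homeobox repressor, 0.766 ± 0.191 FPKM in Tip60 cKO and 0.448 ± 0.111 FPKM in Control libraries (SD, n = 6 each; limma adjusted p = 0.0026 for Gsx1 and 0.0045 for Tgif1). Tshz1, a zinc finger homeobox gene of olfactory interneurons, Insm1, a factor of neuronal progenitors, and Grhl3, an epidermal factor, also rose, by 0.59, 0.55 and 0.52 on the log2 scale, with no overlap. Twist2, a bHLH factor of mesenchyme, had 0.216 to 0.359 FPKM in Tip60 cKO and 0.608 to 1.03 FPKM in Control libraries (log2 change -1.13 ± 0.13, SE, limma adjusted p = 5.6e-06). Hey1, a Notch target, had 9.90 to 11.99 FPKM in Tip60 cKO and 15.6 to 17.7 FPKM in Control libraries (log2 change -0.59 ± 0.05, SE, limma adjusted p = 1.5e-07). Id3, an inhibitor of bHLH factors, fell by 0.29 on the log2 scale with overlapping groups, and by 0.22, under the fold limit, without Tip60 cKO 3.

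Polycomb complexes keep developmental genes silent by modifying histone H3 and H2A. Of 33 subunit genes, 5 were in the table (Rbbp4, Phf19, Rnf2 and Rybp among them) and 0 were called, with log2 changes of -0.15 to 0.26 and 3 higher and 1 lower at an unadjusted p below 0.05 in limma. At an adjusted p below the limit but within 1.2-fold, Rnf2, the catalytic subunit that marks H2A, averaged 15.1 ± 0.555 FPKM in Tip60 cKO and 12.5 ± 0.842 FPKM in Control libraries (SD, n = 6 each). Its log2 change of 0.2625 lay just under the fold limit. Also within these limits, Rybp averaged 12.7 ± 0.634 FPKM in Tip60 cKO and 11.4 ± 0.699 FPKM in Control libraries. Rbbp4, a histone-binding subunit, averaged 18.3 ± 0.576 FPKM in Tip60 cKO and 20.4 ± 0.969 FPKM in Control libraries (SD, n = 6 each).

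The balance of directions moved with the scaling. Of all calls 81.7% were higher in Tip60 cKO with the deposited values, 65.6% after median-ratio scaling and 64.3% after upper-quartile scaling, and the median log2 change of all genes was 0.15, 0.06 and 0.05 in these 3 fits. Among the members, 11 were called higher after median-ratio and 10 after upper-quartile scaling, with 3 lower in each. The calls lost were those of Dlx1as, Sox1 and Sox3 under both scalings and of Foxp2 under upper-quartile scaling.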

How the data were processed

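RNA-Seq libraries were made from CA1 tissue of 6 Tip60 cKO and 6 Control mice, 1 library per mouse. The authors deposited FPKM values, in which fragments are scaled to transcript length and library size, and no counts. TopHat2 2.0.8 and the mm9 genome are named in the submitters' processing notes. Which program and annotation gave the FPKM values is stated in none of the sources used here. The count analysis in the study's methods used mm10 and other software.

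The table held 10383 rows. Exact repeats (100) were removed and any rows sharing a symbol added up. Left out were small RNAs (524), genes without a value above 0 (2417) and 101 genes with an isolated 0 but a median of at least 1 FPKM in the other libraries of that genotype, none of them members. A gene that the symbol rule leaves out, and a few others by name, are not reported here, though those others are in the counts. Of the remaining 7266 genes, 3646 had a mean of at least 0.1 FPKM and were tested with limma 3.58.1 in R 4.3.3 (mean-dependent prior, robust variances) on log2(FPKM + 0.1), 6 against 6 libraries without covariates, with Benjamini-Hochberg adjustment over all tested genes. A call needed an adjusted p below 0.05 and a fold of FPKM + 0.1 above 1.2, the limits of the study's methods. The log2 changes understate those of low genes. The procedure was tested on simulated data. Alternatives changed the pseudocount, the filter, the scaling, the variance model and the libraries included.

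Depth was estimated from the level at which FPKM times transcript length piled up at 1 read in 2805 genes with 1 annotated transcript. Read equivalents come from that depth and are given only for members with 1 annotated transcript. Genes named are called members, the most abundant members, members of the excitatory neuron, interneuron and glia lists from 0.5 FPKM, members that are no transcription factor, and the 5 largest calls in each direction among the other developmental factors; further genes were named after their values were seen. The members and lists were chosen with earlier results of these data known.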

Additional observations from a re-analysis of the deposited data

Results flagged for a closer look

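In 4 of 50 groups of 6 libraries tested for a library far from the others, 1 value stood apart, where chance gives about 1 in 20. Olig1 was at 36.6 FPKM in Tip60 cKO 3, against 43.9 to 47.1 FPKM in the other Tip60 cKO libraries, and at 32.7 FPKM in Control 1, against 37.5 to 39.7 FPKM in the other Control libraries. Nkx6-2 was at 4.62 FPKM in Tip60 cKO 1, against 5.10 to 5.37 FPKM in the others of that genotype. Emx2 was at 5.98 FPKM in Control 5, against 3.60 to 4.23 FPKM in the other Control libraries. No cause was tested for any of the 4.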

How the results depend on the processing

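Low levels limit most members: at under 0.1 FPKM a value rests on a few reads, and the pseudocount and filter then set the number of calls. The causes of the shifts below were not tested beyond the settings' own construction, as fewer genes pass a higher filter and a larger pseudocount shrinks low genes. Members called higher numbered 14, and 7 with a pseudocount of 1 FPKM, 10 with 0.5 FPKM, 5 with a mean of at least 0.5 FPKM, 4 with both of the stricter settings and 21 without a filter. Members called lower numbered 3, and 1 with a mean of at least 0.5 FPKM, alone or with a pseudocount of 1 FPKM. Leaving out 1 library gave 10 to 16 higher and 2 to 3 lower.

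Among members silent in Control, 3 were called higher, and 0 with a mean of at least 0.5 FPKM, 11 higher and 1 lower without a filter, 9 higher and 1 lower with silence set below 0.5 FPKM, and 0 when split by the mean over 12 libraries. Among low members, 6 higher and 1 lower became 1 and 0 with a pseudocount of 1 FPKM, 3 and 0 with 0.5 FPKM, 0 and 0 with a mean of at least 0.5 FPKM, and 3 to 6 higher and 0 to 1 lower with 1 library left out (3 without Tip60 cKO 2, 0 lower without Control 4). Among expressed members, 5 higher became 3 under either scaling, and 2 lower became 1 with a mean of at least 0.5 FPKM.

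By list, the excitatory list's 4 higher became 2 with either pseudocount or a mean of at least 0.5 FPKM, and 2 to 4 with 1 library left out (2 without Tip60 cKO 2 or Control 6), and its 2 lower became 1 with that mean. The interneuron list's 2 higher became 1 with a pseudocount of 1 FPKM or that mean. The glia list's 3 higher became 1 under either scaling, and 2 to 5 with 1 library left out (5 without Tip60 cKO 3). The vessel, meninges and choroid plexus list's 0 higher became 0 to 2 (2 without Control 6), and its 1 lower became 0 with either pseudocount or that mean and 0 to 1 with 1 library left out. The other developmental factors' 10 higher became 5 with a pseudocount of 1 FPKM, and their 3 lower became 5 with upper-quartile scaling. Non-overlapping tested members, 10 above and 3 below, were 5 and 1 with a mean of at least 0.5 FPKM, and 0 below among members under 0.1 FPKM, a count added after seeing the data. Sox9 changed sign under median-ratio (-0.002) and upper-quartile scaling (-0.008). No paired analysis was possible because the labels give no replicate numbers.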
